A study of Mus musculus with 12 samples.

Results

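The 10 keratin genes described here are the main keratins of the interfollicular epidermis together with those that epidermis makes after injury. They were chosen by gene symbol and are 10 of the 55401 genes in the deposited table. They comprise 3 keratins of the basal layer (Krt5, Krt14 and Krt15), 3 of the suprabasal layers (Krt1, Krt10 and Krt2) and 4 stress keratins (Krt6a, Krt6b, Krt16 and Krt17). All 10 were matched, and 9 had a mean of at least 1 FPKM, a level corrected for gene length and library size, and were tested. Krt2 was not tested.

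Gene expression was measured by RNA sequencing of tissue labelled dermis from C57BL/6 mice aged 6 weeks. The mice were either wild type (WT) or lacked Cthrc1, which encodes a secreted collagen triple helix repeat protein (Cthrc1-/-). Samples were taken on day 0 and on day 7 of a wounding experiment, so that genotype and day together give 4 groups. Each group had 3 samples labelled as biological replicates, 12 in all. The labels name no other allele or agent for any group and do not say whether the null allele acts only in some cells, whether any animal gave more than 1 sample, or whether littermates were used.

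Keratins form the intermediate filaments of epithelial cells, and each filament pairs a type I with a type II keratin. Basal keratinocytes make Krt5 (type II) with Krt14 (type I). Cells that leave the basal layer switch to Krt1 (type II) with Krt10 (type I), and Krt2 is a late suprabasal type II keratin. Krt15 is a type I keratin of basal cells and of the hair follicle bulge, where follicle stem cells lie. Krt6a and Krt6b (type II) with Krt16 and Krt17 (type I) are induced in keratinocytes at wound edges. Parts of the hair follicle also make Krt6a, Krt16 and Krt17 without injury. Mouse hair follicles cycle through phases of growth and rest.

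The type II genes lie together on chromosome 15 and the type I genes on chromosome 11, all on the minus strand (GRCm38, GENCODE M21). Krt6b spans 101676023 to 101680287, Krt6a 101689910 to 101694307, Krt5 101707070 to 101712898, Krt2 101810689 to 101818169 and Krt1 101845426 to 101850794 on chromosome 15. Krt10 spans 99385254 to 99389364, Krt15 100131758 to 100135928, Krt14 100203162 to 100207548, Krt16 100246091 to 100248902 and Krt17 100256217 to 100261029 on chromosome 11. All are annotated as protein-coding.

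Krt6a and Krt6b are near-identical copies, and because their levels behaved differently below, a stretch that tells them apart is shown. Their coding sequences were 97.8% identical over 1662 aligned bases, with a longest identical run of 280 bases. Of the 150-base windows of the Krt6a transcript, 18.7% also occurred unchanged in a transcript of another gene, for the most part Krt6b. For Krt6b the share was 18.8%. Among 60-base coding windows within 1 exon, the one with the most differences held 10, in exon 4 of both genes. It spans chr15:101692484-101692543 in Krt6a and chr15:101678303-101678362 in Krt6b, minus strand, GRCm38, and capitals mark the bases that differ.
Krt6a: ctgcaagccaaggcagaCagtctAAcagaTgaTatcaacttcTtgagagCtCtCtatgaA
Krt6b: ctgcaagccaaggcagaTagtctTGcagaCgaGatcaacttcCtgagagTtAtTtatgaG

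Krt16 shares sequence with the annotated pseudogene Gm11597 (chromosome 11, 100228845 to 100232078), and 18.4% of the 150-base windows of its transcript occurred there unchanged. The aligned part of the Krt16 coding sequence was 96.8% identical to the Gm11597 transcript over 964 bases. The pair of sequences below is the 60-base window with the most differences, 9, in exon 8 of Krt16 (chr11:100246237-100246296) and exon 7 of Gm11597 (chr11:100228848-100228907), minus strand, with the differing bases in capitals.
Krt16: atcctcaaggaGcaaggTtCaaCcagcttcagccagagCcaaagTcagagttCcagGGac
Gm11597: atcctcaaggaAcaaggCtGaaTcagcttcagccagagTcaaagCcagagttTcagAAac

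No 150-base window of the other 7 keratins occurred in another gene. Gm11597 had between 71 and 13693 counts per sample and Krt16 between 2043 and 123723, so the copy took the smaller part throughout. How the authors' counting divided reads between such copies is not given in the sources used here, and the values of Krt6a, Krt6b and Krt16 are uncertain to that extent. An antisense gene, Gm49428, overlaps Krt6a. It had 34 to 379 counts against 21231 to 139705 for Krt6a, and whether counting used strand is not given.

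Promoters of 4 of the 10 keratins were found in the RefSeq promoter table (GRCm38.p6), and 250 bases before to 50 bases after each start were searched on both strands for 3 motifs. The AP-1 motif TGANTCA, held by 7.81% of 32851 promoters, occurred in none of the 4. The TATA box letters TATAAA, held by 13.6%, occurred in Krt10. The Klf-type motif CCACCC, held by 31.5%, occurred in Krt5, Krt10 and Krt14, although the Krt14 entry lies inside the annotated gene rather than at its start. No matches overlapped. Krt10 was the keratin with both of these motifs, and its 250 upstream bases (chr11:99389365-99389614, minus strand) are shown with the matches in capitals. A match is a match of letters only.
Krt10: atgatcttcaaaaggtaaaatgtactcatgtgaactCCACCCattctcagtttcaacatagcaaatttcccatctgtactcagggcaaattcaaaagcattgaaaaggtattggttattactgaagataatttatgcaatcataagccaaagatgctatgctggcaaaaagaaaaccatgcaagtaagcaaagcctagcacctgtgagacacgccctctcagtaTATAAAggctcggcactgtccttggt

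Total counts were 48329668 to 76938132 per sample, and the 10 keratins took between 0.705% and 2.71% of them. Cthrc1 had at least 1813 counts in every WT library and at most 15 in every Cthrc1-/- library. The fibroblast genes that define dermis were present in every library, with a summed level over 9 markers of 374 to 6553 FPKM. Epidermal transcripts were abundant as well: the 22 keratinocyte genes other than keratins summed to 1780 to 6376 FPKM. 2 libraries stood apart. In Cthrc1-/- day 0 replicate 3 the fibroblast sum was 374 FPKM and the inner root sheath sum 11695 FPKM, the lowest and the highest of the 12. In WT day 7 replicate 1 the keratinocyte sum was 1780 FPKM, the lowest of the 12, and the 8 leukocyte markers summed to 393 FPKM, the highest. The plot of summed marker levels gives every sample.

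**Figure D1:**
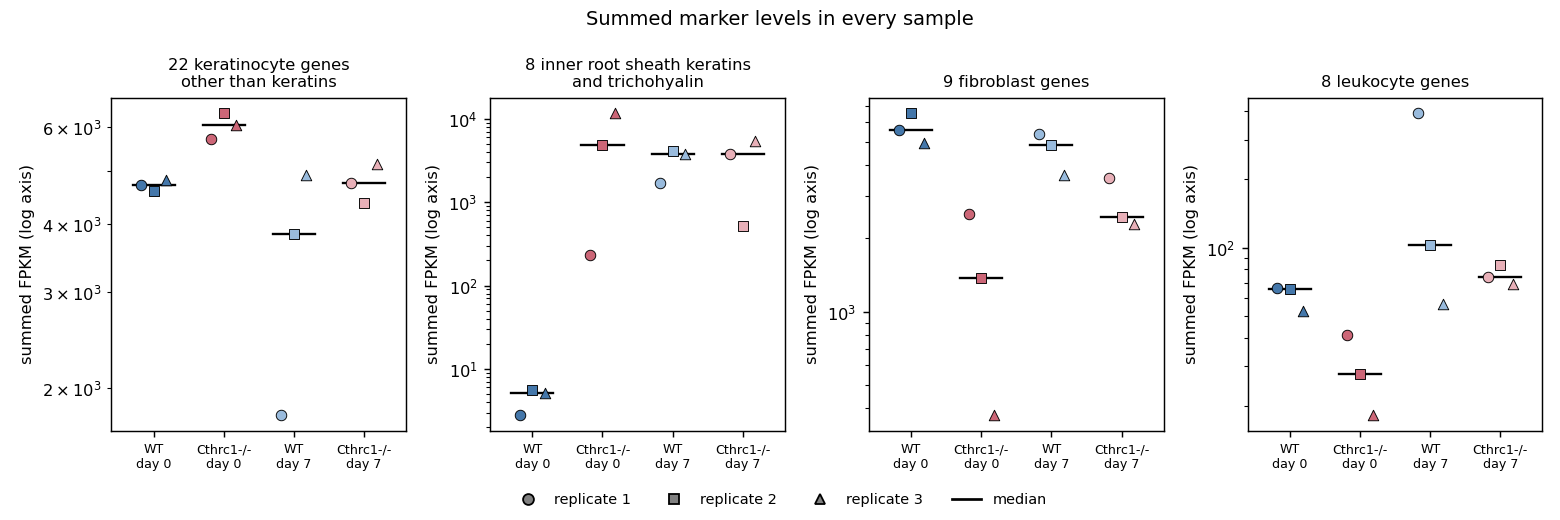
Summed FPKM (log axis) of 4 marker lists in each sample, by group, with shapes for replicates and a line at the median. WT day 0 samples lie between 2.77 and 5.60 FPKM for inner root sheath genes and all other samples at 232 FPKM or above, and WT day 7 replicate 1 is lowest for keratinocyte genes and highest for leukocyte genes.

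In unwounded WT skin the keratins were ordered, most of them with little spread between the 3 samples. For Krt16, Krt6b and Krt2, the lowest of them, the SD was large relative to the mean. Krt5 was highest at 3595 ± 220 FPKM (SD, n = 3), followed by Krt15 at 2310 ± 77.2 and Krt14 at 2221 ± 302, whose ranges overlapped. Krt10 (1578 ± 140), Krt17 (794 ± 33.3), Krt1 (370 ± 1.95) and Krt6a (173 ± 15.9) came next, then Krt16 (28.9 ± 10.6), Krt6b (13.7 ± 5.23) and Krt2 (0.490 ± 0.220 FPKM). Apart from Krt15 and Krt14, no neighbours in this order overlapped. Basal keratins made up 71.6% to 75.3% of the summed FPKM of the 10, suprabasal keratins 15.5% to 18.9% and stress keratins 8.65% to 9.55%.

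The order was different in the other groups, and far less sharp. In Cthrc1-/- day 0, Krt17 (1934 ± 471 FPKM) ranked above Krt15 (1103 ± 669), and of the 9 pairs of neighbours only Krt6a with Krt16 and Krt6b with Krt2 had ranges that did not overlap. On day 7, Krt14 was the highest keratin in both genotypes, at 2328 ± 1013 FPKM in WT and 3254 ± 283 FPKM in Cthrc1-/-. Krt15 was ninth of 10 in both, at 301 ± 258 and 310 ± 109 FPKM. On that day stress keratins took 12.5% to 33.5% of keratin FPKM in WT, and in Cthrc1-/- they took 19.8% to 31.9%. Krt2 stayed below 3 FPKM in all 12 samples, with 0 to 515 counts,. It had 0 counts in WT day 7 replicate 1, where up to 3 counts, or 0.0484 CPM (counts scaled to library size), would be allowed.

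**Figure D2:**
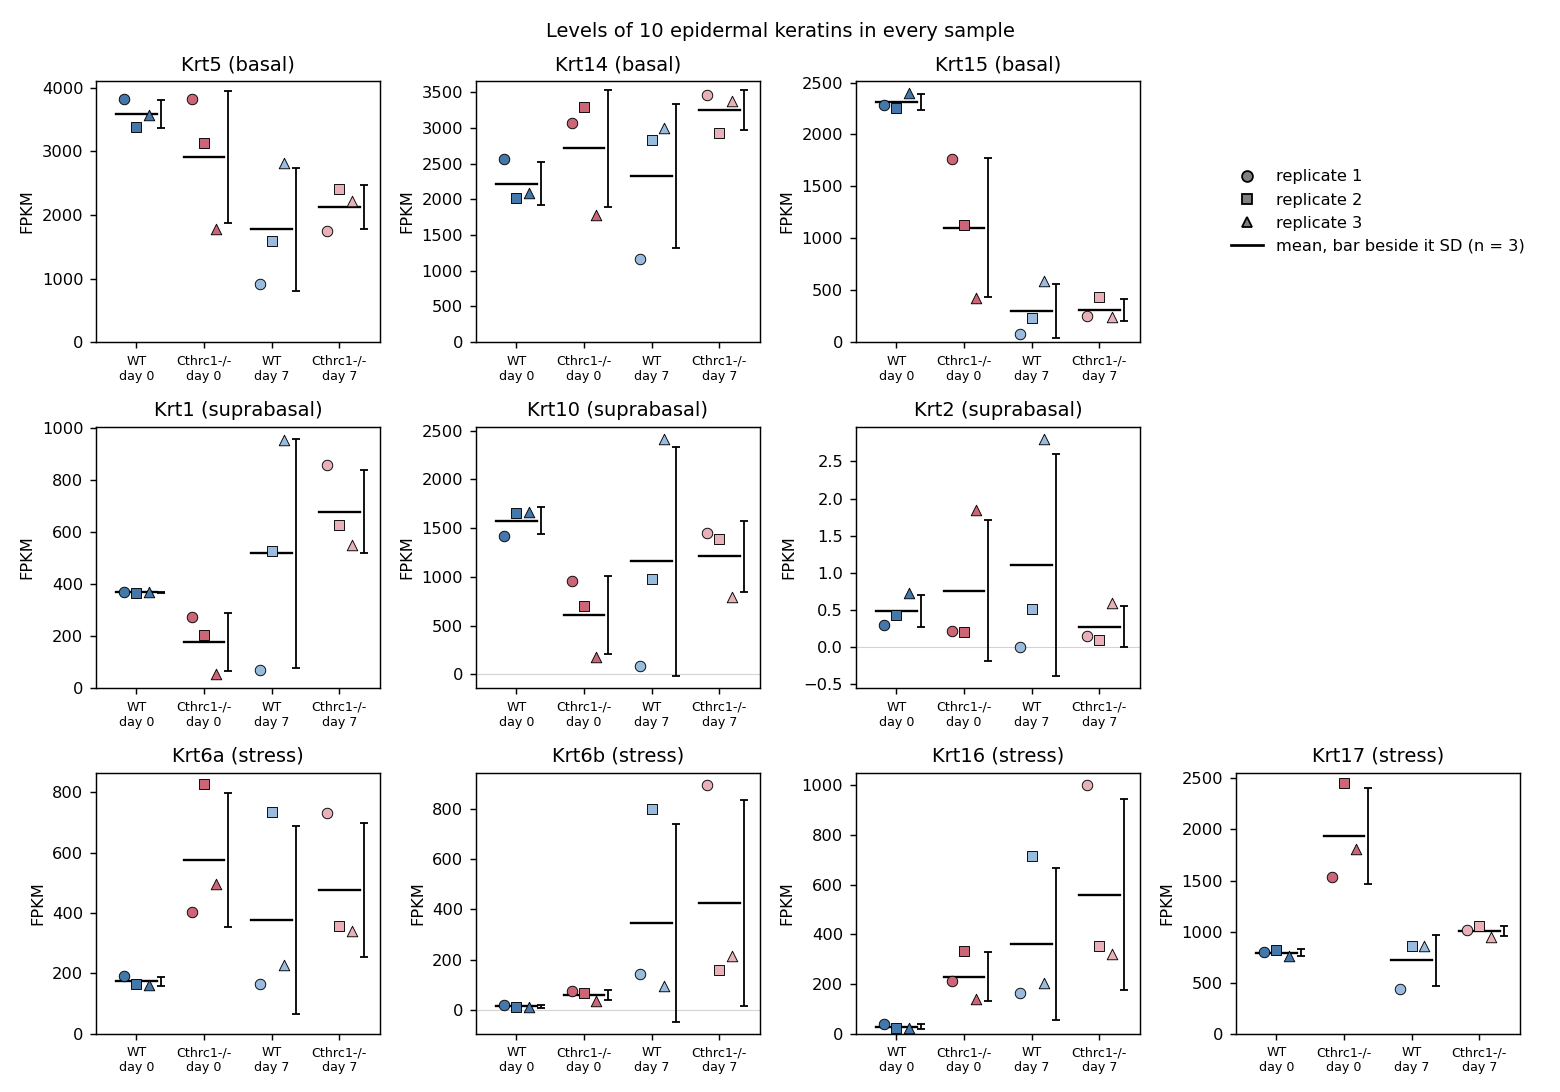
FPKM of each keratin in each sample (linear axes), with shapes for replicates, a line at the group mean and a bar of 1 SD beside it (n = 3). For Krt15 and Krt1 the SD is 77.2 and 1.95 FPKM in WT day 0 and over 100 FPKM in every other group, and for Krt17 it is 33.3 FPKM in WT day 0 and 51.2 FPKM in Cthrc1-/- day 7.

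**Figure D3:**
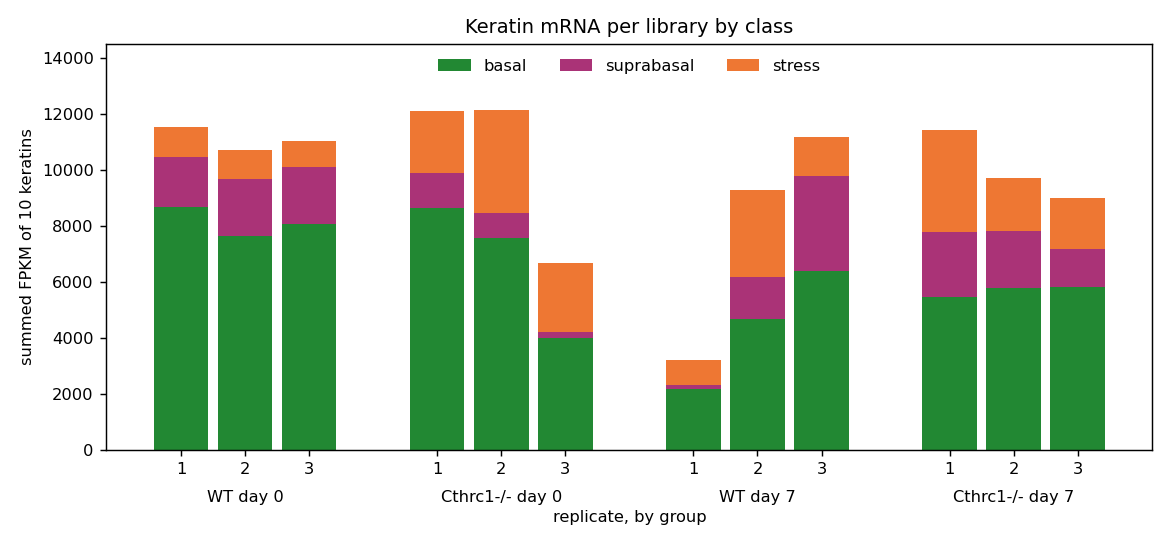
Summed FPKM of the 10 keratins in each library, stacked by class (basal, suprabasal, stress). WT day 7 replicate 1 reaches 3217 FPKM and Cthrc1-/- day 0 replicate 3 reaches 6684 FPKM, and the other 10 lie between 9000 and 12136 FPKM.

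The first comparison asked how keratin expression differed between genotypes before wounding. Of the 9 keratins tested, 2 were higher in Cthrc1-/- than in WT on day 0 and none was lower, both of them stress keratins: Krt16 and Krt17. Over all 14313 genes tested, 3.51% were called higher and 2.26% lower (edgeR, Benjamini-Hochberg adjusted p under 0.05). All 4 stress keratins lay above WT in every Cthrc1-/- sample, and Krt15, Krt1 and Krt10 lay below it in every sample. Over all genes, 21.5% were entirely above and 19.8% entirely below. The median log2 change of the 9 keratins was 0.20, against -0.05 over all genes.

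Krt16, the type I partner of Krt6 in activated keratinocytes, was at 41.0, 21.5 and 24.2 FPKM in WT day 0 replicates 1 to 3. It was at 212, 335 and 139 FPKM in Cthrc1-/- day 0. The lowest Cthrc1-/- sample was thus above the highest WT sample by a wide margin. The log2 change was 2.90 ± 0.67 (SE), a 7.44-fold difference, with an edgeR adjusted p of 0.0416. Krt17, a type I keratin of follicles and of wounded epidermis, was at 800, 824 and 758 FPKM in WT and at 1539, 2455 and 1809 FPKM in Cthrc1-/-. Its log2 change was 1.18 ± 0.23, or 2.26-fold, with an edgeR adjusted p of 0.0311. Both calls were near the threshold. Without Cthrc1-/- day 0 replicate 2, the edgeR adjusted p was 0.104 for Krt16 and 0.0812 for Krt17. Without WT day 0 replicate 1, 2 or 3 it was 0.102, 0.140 and 0.132 for Krt16 and 0.09998, 0.108 and 0.113 for Krt17, and without Cthrc1-/- day 7 replicate 1 it was 0.0529 and 0.0549. Krt16 alone also missed it without Cthrc1-/- day 0 replicate 3 (0.0592), Cthrc1-/- day 7 replicate 2 (0.0542) or WT day 7 replicate 3 (0.05002). In each of these fits both keratins kept a positive log2 change, and with both outlying libraries left out their edgeR adjusted p was 0.0337 and 0.0144. In a fit of only the 2 groups compared both had an edgeR adjusted p of 0.0792, and with no filter on low genes Krt16 had 0.0584. Fewer genes were called over all in the fits where a call was lost, against 503 higher and 324 lower in the main fit. They numbered 48, 18 and 18 without WT day 0 replicates 1, 2 and 3, and 154 without Cthrc1-/- day 0 replicate 2. Without Cthrc1-/- day 7 replicate 1 they numbered 193, and 19 in the fit of only the 2 groups.

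The type II stress keratins Krt6a and Krt6b were not called by edgeR, and no test compared the size of their changes. Krt6a was at 191, 165 and 163 FPKM in WT and at 404, 827 and 497 FPKM in Cthrc1-/-, with a log2 change of 1.63 ± 0.53 and an edgeR adjusted p of 0.0882. Krt6b was at 19.7, 11.0 and 10.4 FPKM in WT and at 75.2, 65.6 and 36.2 FPKM in Cthrc1-/-, with a log2 change of 2.02 ± 0.87 and an edgeR adjusted p of 0.158. For both genes every Cthrc1-/- sample exceeded every WT sample. With their counts summed, the log2 change was 1.66 and the edgeR adjusted p 0.129. Under DESeq2 both were called, at adjusted p of 0.0115 and 0.0448. DESeq2 called 2787 genes over all in this comparison, against 503 higher and 324 lower with edgeR.

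The basal pair did not move together with the stress keratins. Krt5 was at 3826, 3388 and 3571 FPKM in WT and 3822, 3128 and 1773 FPKM in Cthrc1-/-, so that replicates 2 and 3 lay below the WT range. Krt14 was at 2568, 2013 and 2081 FPKM in WT and 3064, 3297 and 1775 FPKM in Cthrc1-/-. Their log2 changes were -0.39 ± 0.37 and 0.20 ± 0.33, and neither was called. Krt15 was at 2281, 2251 and 2397 FPKM in WT and at 1761, 1124 and 424 FPKM in Cthrc1-/-, with no overlap. Its log2 change of -1.14 ± 0.64 had an edgeR adjusted p of 0.262. The 3 Cthrc1-/- samples were spread widely, but the spread in this fit was estimated over all 4 groups. Without WT day 7 replicate 1 the edgeR adjusted p was 0.153, and without both outlying libraries it was 0.300.

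The suprabasal pair was lower in each Cthrc1-/- sample but the difference was not called. Krt1 was at 370, 367 and 371 FPKM in WT and at 272, 205 and 53.7 FPKM in Cthrc1-/-. Krt10 was at 1417, 1652 and 1665 FPKM in WT and at 962, 699 and 175 FPKM in Cthrc1-/-. The order of the 3 Cthrc1-/- samples was the same for both partners and for Krt15. The log2 changes were -1.13 ± 0.75 (edgeR adjusted p = 0.340) and -1.44 ± 0.89 (0.309).

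Ratios within a library do not depend on how much of its RNA is keratin. The ratio of the stress keratins to Krt5 plus Krt14 (summed FPKM) was 0.165, 0.189 and 0.169 in WT day 0 and 0.324, 0.573 and 0.699 in Cthrc1-/- day 0. The ratio of the suprabasal keratins to Krt5 plus Krt14 was 0.280, 0.374 and 0.360 in WT and 0.179, 0.141 and 0.0650 in Cthrc1-/-. Thus the groups did not overlap in either ratio, the first being higher and the second lower in Cthrc1-/-. Leaving Krt17 out of the stress sum lowered the group medians from 0.169 to 0.0366 in WT and from 0.573 to 0.189 in Cthrc1-/-, in the same order. The ratio of Krt14 to Krt5 was 0.671, 0.594 and 0.583 in WT and 0.802, 1.05 and 1.001 in Cthrc1-/-. These ratios carry no test. In bulk tissue, more cells of a type and more RNA per cell cannot be told apart.

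**Figure D4:**
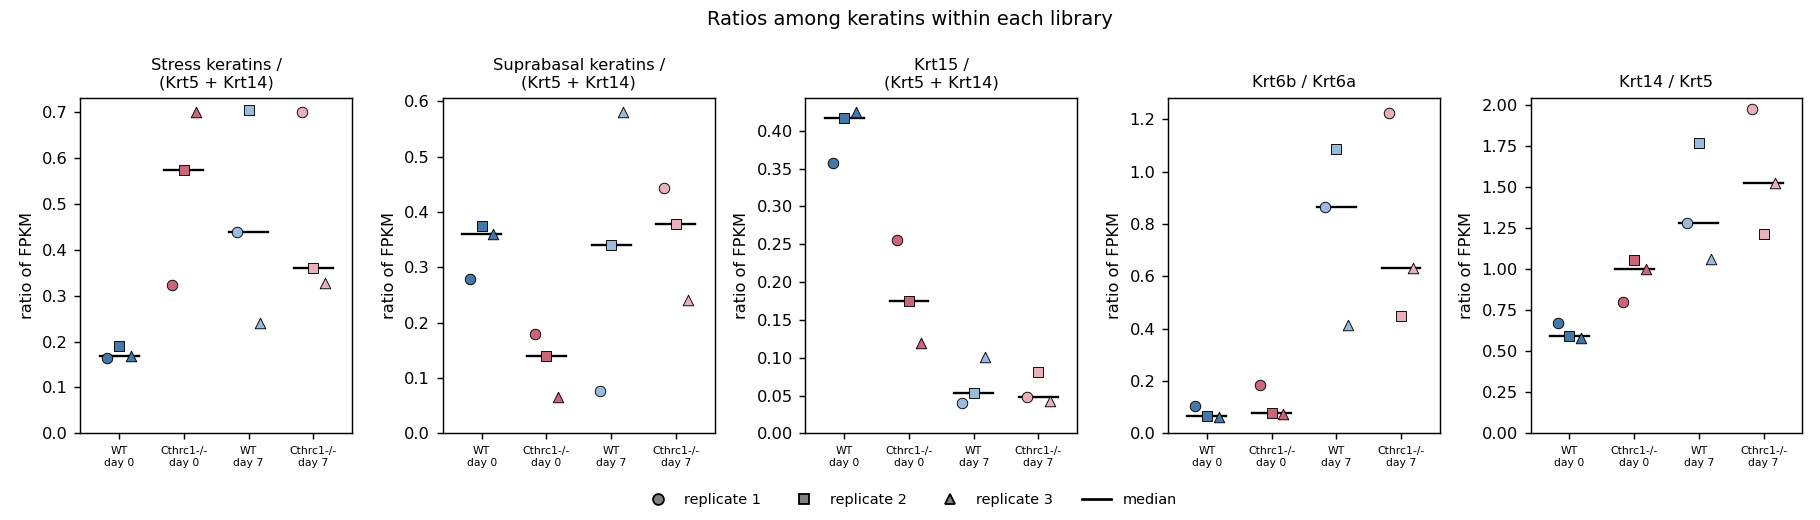
Ratios of FPKM among keratins within each library, by group, with shapes for replicates and a line at the median. Stress keratins relative to Krt5 plus Krt14 are below 0.19 in WT day 0 and at 0.239 or above in all other samples, and Krt6b relative to Krt6a is at 0.414 or above on day 7 and below 0.19 on day 0.

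Hair follicle genes also differed between the genotypes on day 0. Of 9 inner root sheath genes (8 keratins and trichohyalin) 8 were higher in Cthrc1-/- on day 0, and of 14 hair shaft keratins tested 12 were higher. The inner root sheath sum was 2.77 to 5.60 FPKM in WT and 232, 4864 and 11695 FPKM in the 3 Cthrc1-/- samples. Within Cthrc1-/- day 0 the ratio of stress to basal keratins had the same order as the inner root sheath sum, lowest in replicate 1 and highest in replicate 3. The stress sum itself did not: it was 2230, 3683 and 2481 FPKM, while the basal sum with Krt15 was 8647, 7549 and 3972 FPKM. Krt16 and Krt6b were lowest in replicate 3. Whether follicle genes and keratins varied together was not tested. Krt33b and Krt82 of the shaft list had 0 counts in all 3 WT day 0 samples. Proliferation genes were called higher for 6 of 8, with a summed level of 25.0 to 36.2 FPKM in WT and 54.4 to 109 FPKM in Cthrc1-/-. Of 5 melanocyte genes 2 were called higher, and of 9 fibroblast genes 1 was called lower, Col1a2 (1250 against 243 FPKM on average), with an edgeR adjusted p of 0.0480 that was 0.0682 without WT day 7 replicate 2. Without Cthrc1-/- day 0 replicate 3 the genes called higher were 6 of the inner root sheath, 2 of the shaft, 2 of the proliferation and 0 of the melanocyte list, and without WT day 7 replicate 2 they were 8, 4, 4 and 0. Calls over all genes, higher or lower, were 238 and 302 in these 2 fits.

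Summed markers of other cells also differed between the genotypes on day 0. The summed levels of 5 lists lay below WT in every Cthrc1-/- sample on day 0. Fibroblast genes summed to 4938 to 6553 FPKM in WT against 374 to 2510 FPKM, skeletal muscle genes to 343 to 780 against 78.5 to 307 FPKM, and adipocyte genes to 153 to 201 against 71.1 to 102 FPKM. Leukocyte genes summed to 52.3 to 66.1 FPKM in WT against 18.1 to 40.9 FPKM and endothelial genes to 47.6 to 48.3 against 13.2 to 38.1 FPKM. Keratinocyte genes other than keratins were above WT in every sample, at 5724 to 6376 against 4588 to 4804 FPKM. Sebaceous gland genes overlapped. No single gene of the muscle, adipocyte, leukocyte, endothelial or sebaceous lists was called, while their median log2 changes were -1.55, -1.98, -0.76, -0.77 and 0.15. The part that any of these cells have in the keratin differences was not tested.

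Other genes of epidermis were examined as lists. Among 18 activated keratinocyte genes tested, 3 were higher in Cthrc1-/- on day 0 and none lower, all of them small proline-rich proteins, which are crosslinked into the cornified envelope. Sprr1a had a mean of 95.0 FPKM in WT and 888 FPKM in mice lacking Cthrc1 (log2 change 3.11 ± 0.38, edgeR adjusted p = 0.00941), Sprr1b 2.23 and 51.0 FPKM, and Sprr2h 0.622 and 20.0 FPKM. S100a8 and S100a9, the calprotectin subunits, lay above WT in every Cthrc1-/- sample but were not called. S100a8 was at 1.07 to 1.87 FPKM in WT and 10.3 to 24.1 FPKM in Cthrc1-/- (edgeR adjusted p = 0.105), and S100a9 at 3.69 to 7.46 against 11.4 to 62.7 FPKM (0.190). These 2 genes were singled out after their values were seen. Of 17 cornification genes 3 were higher, namely Cnfn (cornifelin), the protease Klk7 and the crosslinking enzyme Tgm1, with log2 changes of 2.11 ± 0.41, 1.94 ± 0.40 and 1.66 ± 0.32. Without Cthrc1-/- day 0 replicate 3 none of the 3 was called (edgeR adjusted p of 0.0547, 0.0555 and 0.0663), and without WT day 7 replicate 1 the list held 6 calls. Calls over all genes were 238 in the first of these fits and 1574 in the second.

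The remaining epidermal lists held few calls on day 0. Of 22 keratinocyte genes other than keratins 1 was higher, the transcription factor Ehf (1.86 against 10.5 FPKM, log2 change 2.42 ± 0.43), and none was lower. Without WT day 7 replicate 1 the keratinocyte list held 9 higher and 1 lower, and without both outlying libraries 4 and 1. Calls over all genes were 1574 and 976 in these 2 fits, against 503 higher and 324 lower in the main fit. None of 17 genes that anchor keratin filaments at desmosomes and hemidesmosomes was called, and the smallest p among them were those of Dst and Itgb4 (edgeR adjusted p of 0.0821 and 0.0934, both lower on average). None of 11 other epithelial keratins was called, the nearest being Krt79 (124 against 305 FPKM, adjusted p = 0.0676) and Krt80 (77.6 against 40.9 FPKM, adjusted p = 0.104). None of 24 signals and transcription factors linked to stress keratins was called. Fos and Klf4 had the smallest p, with log2 changes of -1.32 ± 0.42 and -1.28 ± 0.41 and edgeR adjusted p of 0.0814 and 0.0855. Median log2 changes were 1.88 for activated keratinocyte genes, 1.41 for cornification genes, 0.28 for keratinocyte genes and -0.12 for filament anchoring genes.

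The next comparison asked what differed between genotypes on day 7. No keratin was called by edgeR, and none had an unadjusted p under 0.05. Over all genes 0.014% were called higher and 0.00699% lower. DESeq2 also called none of the 9. Only Krt17 lay entirely above WT, at 434, 858 and 861 FPKM in WT and 1015, 1050 and 949 FPKM in Cthrc1-/-, whereas over all genes 6.46% lay entirely above and 2.67% entirely below. Its log2 change was 0.44 ± 0.23 (edgeR adjusted p = 0.942).

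The other 8 keratins tested overlapped between genotypes on day 7, with single samples far from the rest. Krt16 was at 165, 716 and 206 FPKM in WT and at 1002, 354 and 323 FPKM in Cthrc1-/-. Krt6b was at 143, 800 and 94.8 FPKM in WT and at 896, 160 and 215 FPKM in Cthrc1-/-. WT replicate 2 and Cthrc1-/- replicate 1 were thus the highest of their groups in both genes, and likewise in Krt6a, at 735 and 732 FPKM. The stress to basal ratio was 0.439, 0.703 and 0.239 in WT and 0.700, 0.360 and 0.328 in Cthrc1-/-, and the same samples were highest. Log2 changes of the 9 keratins were between 0.04 and 0.57, with SE between 0.23 and 0.87, so that differences of this size could not be resolved. The signs of 7 of them turned when 1 library was left out. None of the epidermal lists held a call.

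The third comparison followed WT skin from day 0 to day 7. Of the 9 keratins 2 rose, Krt6b and Krt16, and 1 fell, Krt15. Of all genes tested 6.04% passed as higher on day 7 and 7.1% as lower. The keratins entirely above their day 0 range were also Krt6b and Krt16, against 29.8% of all genes. Those entirely below it were Krt5 and Krt15, against 14.1%. This comparison shares the WT day 0 samples with the first one. The median log2 change of the 9 was -0.15, against 0.00 over all genes.

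Krt6b rose from 19.7, 11.0 and 10.4 FPKM on day 0 to 143, 800 and 94.8 FPKM on day 7, a 21.97-fold difference. Its log2 change was 4.46 ± 0.96 with an edgeR adjusted p of 0.0177. Krt16 rose 10.9-fold, with a log2 change of 3.44 ± 0.69 and an edgeR adjusted p of 0.0137. In both genes the lowest day 7 sample was above the highest day 0 sample. Leaving out WT day 7 replicate 2 reduced the log2 change to 2.99 for Krt6b and 2.51 for Krt16, with adjusted p of 0.0438 and 0.0361. Without WT day 0 replicate 2 or 3 the edgeR adjusted p was 0.0750 and 0.0744 for Krt6b and 0.0618 and 0.0614 for Krt16, and without WT day 0 replicate 1 that of Krt6b was 0.0556. Without WT day 0 replicate 2 or 3, 527 and 570 genes were called over all, against 864 higher and 1016 lower in the main fit.

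Their family members Krt6a and Krt17 were not called, and no test compared them with Krt6b or Krt16. Krt6a was at 166, 735 and 229 FPKM on day 7 against 163 to 191 FPKM on day 0, and 1 of the 3 samples lay within the day 0 range. Its log2 change was 0.91 ± 0.52 (edgeR adjusted p = 0.257). Krt17 was at 434, 858 and 861 FPKM against 758 to 824 FPKM on day 0, with a log2 change of -0.36 ± 0.23 (adjusted p = 0.314). With the counts of Krt6a and Krt6b summed, the log2 change was 1.70 and the edgeR adjusted p 0.101.

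Krt15 fell from 2281, 2251 and 2397 FPKM on day 0 to 82.7, 234 and 585 FPKM on day 7. The log2 change was -3.19 ± 0.68, so that on day 7 the level was 0.109 times that on day 0 (edgeR adjusted p = 0.0173). Relative to Krt5 plus Krt14, Krt15 was 0.357 to 0.424 on day 0 and 0.0400 to 0.101 on day 7, so the fall was also present within the basal keratins. Without WT day 0 replicate 2 or 3, or WT day 7 replicate 2, the edgeR adjusted p of Krt15 was 0.0520, 0.0523 and 0.0582. Without WT day 7 replicate 1 the log2 change was -2.66 and the adjusted p 0.0324.

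Krt5 was lower in each day 7 sample (907, 1594 and 2821 FPKM) than on day 0, but the difference was just outside the threshold (log2 change -1.25 ± 0.38, edgeR adjusted p = 0.0545). It passed under DESeq2 (0.0103), without Cthrc1-/- day 0 replicate 1 (0.0487) or replicate 3 (0.0253), without WT day 7 replicate 3 (0.0225) and without both outlying libraries (0.0417). DESeq2 called 3551 genes over all in this comparison, against 864 higher and 1016 lower with edgeR. Krt14, the partner of Krt5, was at 1162, 2826 and 2994 FPKM, which spans the day 0 range. The ratio of Krt14 to Krt5 was 0.583 to 0.671 on day 0 and 1.28, 1.77 and 1.06 on day 7. Hence the basal partners, with Krt5 above Krt14 on day 0, stood in the opposite order in each WT day 7 sample.

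Krt1 and Krt10 were spread widely on day 7. Krt1 was at 70.6, 528 and 956 FPKM and Krt10 at 86.7, 976 and 2417 FPKM, and in both genes replicate 1 was lowest and replicate 3 highest. The suprabasal to basal ratio was accordingly 0.0760, 0.340 and 0.580, a range that included the values of day 0. The ratio of Krt10 to Krt1 was 3.83 to 4.50 on day 0 and 1.23, 1.85 and 2.53 on day 7. Neither gene was called (log2 changes of 0.23 ± 0.74 and -0.71 ± 0.87).

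Among the epidermal lists in WT, 8 of 18 activated keratinocyte genes rose and none fell. S100a8 was at 1.07 to 1.87 FPKM on day 0 and at 1210, 250 and 12.5 FPKM on day 7 (log2 change 8.29 ± 1.505, edgeR adjusted p = 0.00971). S100a9 was at 3409, 483 and 24.0 FPKM on day 7 and the protease inhibitor Slpi at 151, 11.7 and 2.28 FPKM. In these 3 genes replicate 1, which stood apart, was far above the others. Without it the log2 changes were 6.35, 5.50 and 2.68 in place of 8.29, 7.92 and 5.71, with edgeR adjusted p of 0.0127, 0.0237 and 0.0287. Sprr2d was highest in replicate 2, at 6.38, 102.7 and 4.74 FPKM, and without that sample its edgeR adjusted p was 0.143 in place of 0.0478. S100a8 and S100a9 are also abundant in neutrophils. The leukocyte markers summed to 52.3 to 66.1 FPKM on day 0 and to 393, 103 and 56.2 FPKM on day 7, and 1 of the 7 tested, the neutrophil receptor Csf3r, was called higher. Csf3r was at 138, 3.96 and 1.46 FPKM on day 7, and without replicate 1 its edgeR adjusted p was 0.0594. The part of leukocytes in these values was not tested.

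Genes that hold keratin filaments, and other epithelial keratins, went down where they were called. Of 17 filament anchoring genes 3 fell and none rose: Dst, the hemidesmosomal linker (log2 change -1.57 ± 0.43), the integrin Itgb4 (-1.43 ± 0.35) and the desmosomal cadherin Dsg3 (-1.19 ± 0.25). Of 11 other epithelial keratins 4 fell and none rose, and Krt24 went from 30.7 to 0.916 FPKM, Krt13 from 3.58 to 0.123, Krt8 from 1.40 to 0.332 and Krt80 from 77.6 to 23.9 FPKM. Krt13 and Krt8 were low, with 0, 22 and 28 counts and 27, 64 and 53 counts in the WT day 7 samples. Of 22 keratinocyte genes Fxyd3 and Trp63, the p63 factor of basal cells, fell (log2 changes of -1.13 ± 0.29 and -1.02 ± 0.30), and the cadherin Cdh3 rose (0.93 ± 0.26). Of 17 cornification genes Tgm1 rose (1.40 ± 0.32) and Sbsn fell (-1.34 ± 0.37), and the median log2 change of this list was 0.64. Without WT day 7 replicate 1 the cornification list held 5 higher and 0 lower, and without replicate 2 it held 0 and 0. Without both outlying libraries it held 6 higher and 1 lower. Calls over all genes were 1195 without replicate 1, against 864 higher and 1016 lower in the main fit. Those of the other 2 fits are not given here. Without WT day 7 replicate 1 the calls of Dst, Itgb4, Krt8, Fxyd3, Trp63 and Sbsn were lost, at edgeR adjusted p of 0.115, 0.0739, 0.0835, 0.0775, 0.0800 and 0.105. Without WT day 7 replicate 2 those of all 6 were lost as well, as were those of Krt13, Cdh3 and Tgm1 (0.0611, 0.0825 and 0.0609). Each kept its direction. With both outlying libraries left out all 9 were called.

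Of 24 signals and factors linked to stress keratins, 1 rose and 6 fell in WT. The cytokine Il1a rose from 0.499 to 0.958 FPKM on day 0 to 26.2, 2.44 and 1.82 FPKM on day 7 (log2 change 3.84 ± 1.04), the highest being replicate 1. Without that library its log2 change was 1.52 and it was not called. Klf4 (400 to 94.6 FPKM), Fos (930 to 248 FPKM) and the growth factor Hbegf (25.8 to 7.64 FPKM) fell, with log2 changes of -2.30 ± 0.43, -2.08 ± 0.43 and -1.96 ± 0.38. Without WT day 7 replicate 2 the edgeR adjusted p of Fos was 0.0522. Follicle genes moved here too: 8 of 9 inner root sheath genes, 9 of 14 hair shaft keratins, 4 of 5 melanocyte genes and 8 of 8 proliferation genes rose. The inner root sheath sum was 1683, 4086 and 3786 FPKM on day 7. All 5 adipocyte genes fell and so did 1 of 5 sebaceous gland genes, Awat1, and none of 8 skeletal muscle, 5 endothelial or 9 fibroblast genes was called. Without WT day 7 replicate 1 the calls were 7 of the shaft and 0 of the adipocyte and sebaceous lists. Without replicate 2 they were 2 of the shaft, 2 of the adipocyte and 0 of the sebaceous list. Calls over all genes were 1195 without replicate 1, and those without replicate 2 are not given here. The part of the cells that these lists mark in the keratin changes was not tested.

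**Figure D5:**
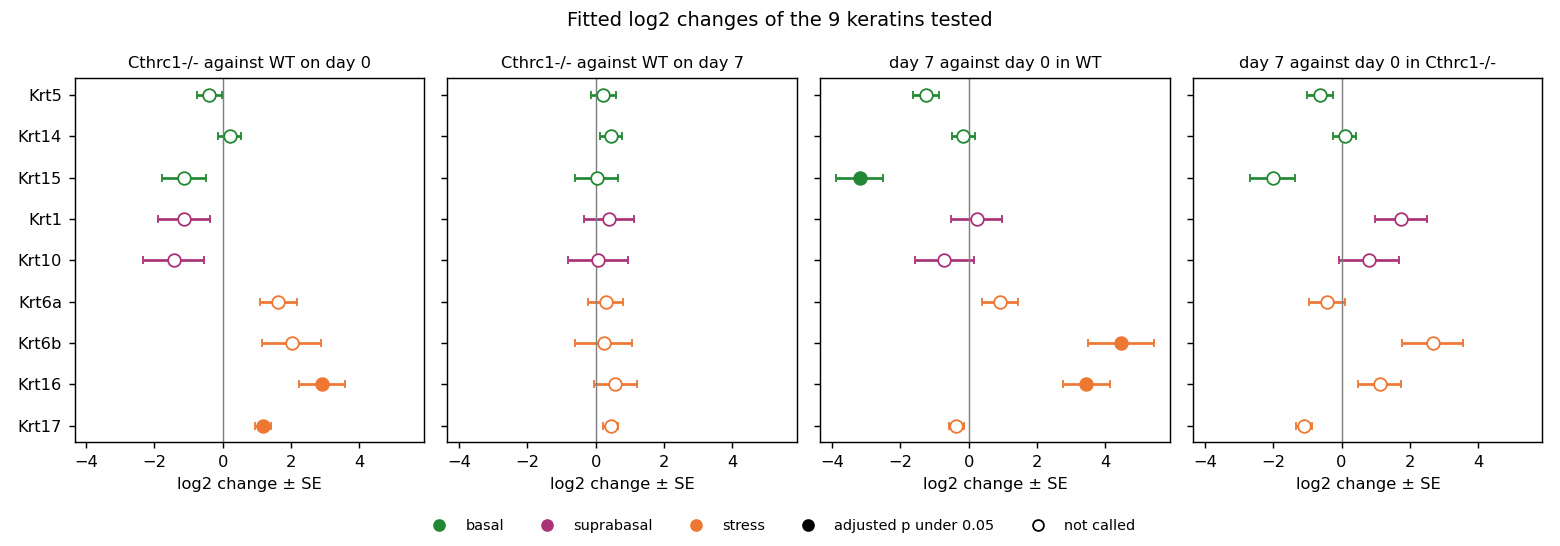
Log2 change (edgeR, ± SE) of the 9 tested keratins in 4 comparisons, with filled points where the adjusted p was under 0.05. Filled points are Krt16 and Krt17 for genotype on day 0 and Krt15, Krt6b and Krt16 for day in WT, and there are none in the other 2 panels.

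The fourth comparison followed Cthrc1-/- skin from day 0 to day 7, and no keratin was called by edgeR, although 4 had an unadjusted p under 0.05. Over all genes 0.859% were called higher and 0.601% lower. Entirely above the day 0 range were Krt6b and Krt1 (21.5% of all genes), and entirely below it was Krt17 (4.99%). Krt17 was at 1539, 2455 and 1809 FPKM on day 0 and at 1015, 1050 and 949 FPKM on day 7. Its log2 change was -1.10 ± 0.23, with an edgeR adjusted p of 0.0514. The call was reached without Cthrc1-/- day 0 replicate 3 (0.0403) and without WT day 7 replicate 1 (0.0109).

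Krt6b stood at 75.2, 65.6 and 36.2 FPKM on day 0 and at 896, 160 and 215 FPKM on day 7 in Cthrc1-/-, with a log2 change of 2.67 ± 0.89 (edgeR adjusted p = 0.149). Krt6a overlapped between the days, at 404 to 827 and 342 to 732 FPKM (-0.43 ± 0.52, adjusted p = 0.710). Krt16 overlapped as well (139 to 335 and 323 to 1002 FPKM, log2 change 1.12 ± 0.63, adjusted p = 0.381). The stress to basal ratio was 0.324, 0.573 and 0.699 on day 0 and 0.700, 0.360 and 0.328 on day 7.

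Krt1 was at 272, 205 and 53.7 FPKM on day 0 and at 857, 629 and 550 FPKM on day 7 in Cthrc1-/- (log2 change 1.75 ± 0.76, edgeR adjusted p = 0.262). Krt10 was at 1454, 1392 and 795 FPKM on day 7, which overlapped with 175 to 962 FPKM on day 0. Krt15 was at 253, 436 and 242 FPKM on day 7, against 424 to 1761 FPKM on day 0 (-2.02 ± 0.65, adjusted p = 0.140). With both outlying libraries left out, 4 keratins were called: Krt17, Krt15 and Krt5 lower (edgeR adjusted p of 0.00737, 0.0105 and 0.0497) and Krt1 higher (0.0252). The calls over all genes in that fit are not given here, so these 4 have no share beside them. DESeq2 called 3, Krt15, Krt6b and Krt17, but it also called many more genes over all than edgeR did. Of the epidermal lists only the signals held a call, the AP-1 subunit Jund, which fell (-1.39 ± 0.21, adjusted p = 0.0216).

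Whether the genotype difference changed between the days was tested by the interaction, the log2 difference between genotypes on day 7 minus that on day 0. No keratin was called by edgeR or DESeq2, and 2 had an unadjusted p under 0.05. Over all genes 0.00699% were called in each direction. The keratins with the smallest p were Krt16 (-2.32 ± 0.90, edgeR adjusted p = 0.277) and Krt17 (-0.74 ± 0.33, adjusted p = 0.323), both with a smaller excess in Cthrc1-/- on day 7 than on day 0. So the 2 calls on day 0 and the absence of calls on day 7 are not shown to differ.

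The copies Krt6a and Krt6b were compared within libraries. The ratio of Krt6b to Krt6a was 0.103, 0.0665 and 0.0637 in WT day 0 and 0.186, 0.0793 and 0.0729 in Cthrc1-/- day 0. It was 0.863, 1.09 and 0.414 in WT day 7 and 1.22, 0.450 and 0.630 in Cthrc1-/- day 7. All 6 samples of day 7 were above all 6 of day 0, while the genotypes overlapped on both days. The total of the stress keratins did not separate the days in this way, since Cthrc1-/- day 0 had a ratio to basal keratins within the range of day 7. The ratio also had no test, and rests on the authors' division of reads between the copies.

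Krt16 relative to Krt6a plus Krt6b separated the groups too. On day 0 the WT samples lay at 0.122 to 0.194 and the Cthrc1-/- samples at 0.261 to 0.444. On day 7 the WT samples lay at 0.467 to 0.636, and those of Cthrc1-/- at 0.580 to 0.685. WT day 0 lay below all other groups, and Cthrc1-/- day 0 lay below both groups of day 7. Krt17 relative to Krt14 instead set Cthrc1-/- day 0 apart, at 0.502, 0.745 and 1.02, from the other 9 samples, which lay between 0.282 and 0.409. Relative to Krt14, Krt16 was at 0.0693 to 0.101 in that group and overlapped with both groups of day 7, at 0.0688 to 0.253 in WT and 0.0958 to 0.290 in Cthrc1-/-, while all WT day 0 samples were lower, at 0.0107 to 0.0160. None of these ratios was tested.

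Finally, the genes not named as keratins or keratin-associated proteins whose log2(FPKM + 1) was most like the mean of each class over the 12 samples were listed among 7754 genes with a mean of at least 5 FPKM. For basal keratins they were Acsbg1 (Pearson r = 0.99), Rarres1, Cd109, Fxyd3 and Adh7 (0.97). For suprabasal keratins they were Sgsm2 (0.95), Tmprss4, Ccdc6, Ankrd35 and Bcl11b (0.93). For stress keratins they were Sprr1b (0.96), the Krt16 copy Gm11597, Teddm3, Sprr2h and Rbp2 (0.94). Gm11597 is a keratin pseudogene that shares sequence with Krt16, a member of that class, so reads counted for either may bear on its r. Members were averaged without scaling, so those with wider ranges weigh more, and the classes include Krt15 (basal) and Krt2 (suprabasal). The likenesses are descriptions over samples that share group, library and tissue makeup.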

How the data were processed

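RNA of 12 mouse dermis samples was poly(A) selected and made into strand-specific paired-end libraries with molecular identifiers, per the labels' protocols. The submitters' processing notes name GRCm38, cutadapt 1.9, HISAT2 2.0.4, UMI-tools, StringTie 1.3.4d, DESeq2 and edgeR, with no roles. The authors deposited whole-number counts and FPKM per gene. Each zero count carries an FPKM of 0.0001, taken as 0. Low counts pile up at multiples of 4, so counts divided by 4 were an alternative.

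Groups and replicate numbers come from the titles. Counts were tested with edgeR 4.0.16 (quasi-likelihood, TMM, two-sided, all 12 samples in 1 fit) over the 14313 genes whose mean FPKM reached 1, adjusted by Benjamini-Hochberg and called at 0.05. The SE is the absolute log2 change over the square root of F. P-values set each difference against a spread between samples that was estimated over all 4 groups together. The procedure was run on simulated counts with the same dispersion for every gene. That simulation did not assess power or error rates at the spread of these keratins. The 10 keratins and the gene lists were chosen with earlier results of these data known. Named list genes are up to 4 called with the largest change, or the 2 with the smallest p. Alternatives were DESeq2 1.42.0, limma 3.58.1 on log2(FPKM + 1) and log2(FPKM + 0.1), total-count scaling, no filter, only the compared groups, a replicate block, summed Krt6 counts and leaving out samples. Leaving out both outlying libraries, and leaving out single libraries for the gene lists, were added after the data were seen.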

Additional observations from a re-analysis of the deposited data

How the results depend on the processing

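With 3 samples a group, moderate differences in keratins that vary as widely as those of day 7 could not be resolved. FPKM and ratios rest on the authors' assignment of reads to near-identical copies. Of 976 refitted log2 changes of single keratins 902 kept their direction and side of the threshold, 24 lost a call, 17 gained one and 33 changed sign.

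For genotype on day 0 the count of called keratins, 2, was 4 with DESeq2, 1 without a filter on low genes, 0 in a fit of only the groups compared and 0 to 2 when 1 sample was left out. Where it was 0, calls over all genes had shrunk to 19 with only the groups compared and 18 to 193 without 1 sample. For day in WT the count, 3, ranged from 0 to 4 when 1 sample was left out. It was 0 without WT day 0 replicate 2 or 3, where 527 and 570 genes were called over all. For day in Cthrc1-/- the count, 0, was 3 with DESeq2 and 1 with the replicate block. It was 4 without both outlying libraries and 0 to 1 without 1 sample. Calls over all genes in these refits, DESeq2 apart, are not given here. The count was 0 under every alternative run for genotype on day 7 and for the interaction. The replicate numbers recur in all groups, but correlations of same-numbered deviations ranged from -0.18 to 0.48, so the numbers were not taken to pair samples, and the block changed no other call of a keratin. The calls gained over all genes differed widely: DESeq2 called 2787 genes for genotype on day 0 against 827 with edgeR, 62 against 3 on day 7, 3551 against 1880 for day in WT, 1409 against 209 for day in Cthrc1-/- and 681 against 2 for the interaction.

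Changes of sign were all in uncalled values. For day in WT, Krt14 was at 0.080 with total counts, 0.18 without both outlying libraries and between -0.32 and 0.24 without 1 sample, and Krt1 was at -0.16 and -0.17 with limma on log2(FPKM + 1) and log2(FPKM + 0.1) and between -0.51 and 0.84 without 1 sample. Total counts moved the median of all genes to 0.20 for day in WT and 0.16 in Cthrc1-/-. For day in Cthrc1-/-, Krt6a with Krt6b counts added was at 0.30, and Krt14 was at -0.18 without both outlying libraries and between -0.17 and 0.27 without 1 sample. In the interaction Krt14 was at -0.35 without both and between -0.10 and 0.42 without 1 sample. For genotype on day 7, leaving out both outlying libraries gave -0.069 for Krt5, -0.41 for Krt15, -0.14 for Krt1, -0.50 for Krt10, -0.043 for Krt6a and -0.11 for Krt6b. Leaving out 1 sample gave ranges of -0.061 to 0.66 for Krt5, -0.40 to 0.89 for Krt15, -0.13 to 1.12 for Krt1, -0.48 to 1.14 for Krt10, -0.16 to 1.19 for Krt6a, -0.94 to 1.71 for Krt6b and -0.15 to 1.51 for Krt16. The cause was not tested.

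Of 48 recomputed ratio medians 41 moved by less than 1 SD. With summed counts the stress to basal median of WT day 0 was 0.142, and the suprabasal to basal medians were 0.449 in WT day 0 and 0.547 in Cthrc1-/- day 7. With Krt15 in the basal sum the WT day 0 medians were 0.121 and 0.253.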
